A study of Mus musculus with 6 samples.

Results

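The 6 genes described here, Gabrp, Ctnnd2, Sv2b, Capsl, Cdkl1 and Acpp, were among the strongest falls of transcript level in the mouse uterus after progesterone. They were chosen by that difference, so their progesterone and oil values are a description and carry no test. They are 6 of 18193 genes with a name of their own on the array. Falls were ranked among genes called lower by the test described below, with no overlap between groups and without clone or model names. Among the largest falls the 6 genes took positions 1, 3, 5, 6, 9 and 11. Acpp, the last of them, differed by -1.93 on the log2 scale, and the genes at positions 12 and 13, Sema3e and Cabcoco1, differed by -1.91 and -1.89. Every probe set annotated to 1 of the 6 symbols alone was used, 12 in all.

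All animals were ovariectomized females of mixed background with the Gata2 f/f genotype, a floxed allele for which the labels name no recombinase. Ovaries were removed at 6 weeks, and at 8 weeks of age 1 group received sesame oil and the other 1 mg of progesterone in 100 µl of sesame oil. Uteri were taken 6 h later, and each group had 3 one-colour Affymetrix arrays. RNA was described as pooled from 3 mice, and whether each array held its own pool was not stated, so the spread between arrays may be partly technical. The groups were compared to find the transcripts that respond to the hormone within hours.

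GABA-A receptors are chloride channels built from several subunits, and the pi subunit encoded by Gabrp is known from epithelia, the uterus among them. Ctnnd2 encodes delta-catenin, a relative of p120-catenin that binds the inner end of cadherins and is best known from neurons. Sv2b is a glycoprotein of synaptic and other secretory vesicles. Capsl is a calcyphosine-like protein of the EF-hand type, a fold that binds calcium, Cdkl1 is a kinase related to cyclin-dependent kinases, and Acpp is prostatic acid phosphatase, whose membrane form releases adenosine from AMP on sensory neurons. None of this tells in which uterine cells the transcripts lie. Whole tissue was measured, so fewer cells of a type and less RNA per cell cannot be told apart.

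The promoters are shown as a description. The 6 genes were chosen for a large fall, so their common direction was set by the choice. All 6 were found in the RefSeq promoter table of GRCm38.p6. The stretches run 250 bases up to the annotated start, on the strand of the gene. Capitals mark matches on either strand to 7 short motifs. AGAACA is part of the element bound by the progesterone and glucocorticoid receptors, and AACAAT is a core bound by SOX factors. The letters AGATAA form a site of GATA-binding factors such as Gata2, and another form of that site is written TGATAA by convention. The core promoter box was searched as TATAAA, the binding motif of the factor NF-Y as CCAAT, and part of the X-box that regulatory factors of ciliary genes bind was searched as GTTGCC. The 4 genes with a match were Gabrp (chr11:33578958-33579207, minus strand), Sv2b (chr7:75309263-75309512, minus strand, the outermost of 4 annotated starts), Capsl (chr15:9435778-9436027, plus strand) and Acpp (chr9:104337723-104337972, minus strand).
Gabrp: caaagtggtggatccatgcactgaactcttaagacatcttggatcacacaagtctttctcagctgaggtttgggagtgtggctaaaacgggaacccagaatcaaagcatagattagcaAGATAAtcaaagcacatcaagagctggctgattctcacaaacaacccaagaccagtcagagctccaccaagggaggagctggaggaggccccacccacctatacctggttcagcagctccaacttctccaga
Sv2b: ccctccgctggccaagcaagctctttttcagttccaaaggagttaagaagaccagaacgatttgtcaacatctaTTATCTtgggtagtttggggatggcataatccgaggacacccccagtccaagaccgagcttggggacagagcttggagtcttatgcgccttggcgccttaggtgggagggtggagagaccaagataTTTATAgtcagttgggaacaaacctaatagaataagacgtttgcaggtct
Capsl: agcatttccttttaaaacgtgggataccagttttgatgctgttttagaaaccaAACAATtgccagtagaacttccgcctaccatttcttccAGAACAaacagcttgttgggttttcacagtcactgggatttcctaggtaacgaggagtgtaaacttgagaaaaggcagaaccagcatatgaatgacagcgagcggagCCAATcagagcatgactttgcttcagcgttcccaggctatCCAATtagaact
Acpp: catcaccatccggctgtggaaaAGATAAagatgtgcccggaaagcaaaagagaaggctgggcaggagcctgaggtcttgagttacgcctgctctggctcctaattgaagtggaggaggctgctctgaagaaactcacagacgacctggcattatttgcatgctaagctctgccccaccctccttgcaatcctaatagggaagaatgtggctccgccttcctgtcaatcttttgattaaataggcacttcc

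AGATAA was matched in Gabrp 132 bases, in Sv2b 176 bases (opposite strand) and in Acpp 228 bases before the start, and 10.0% of the 32851 windows of this length in the table hold it. Capsl had AGAACA at 159 bases and AACAAT at 197 bases before the start, held by 16.1% and 9.4% of windows, and CCAAT at 52 and 12 bases (33.8%). Sv2b also had TATAAA on the opposite strand at 50 bases (12.4%). At the other 3 starts of Sv2b, AGAACA was matched at 159 bases in the next window and, on the opposite strand, at 98 bases in the third. TATAAA was matched on the opposite strand at 232 bases in the next window, and AGATAA on the opposite strand at 101 bases in the fourth. No window of the 6 genes held TGATAA (7.9% of all windows) or GTTGCC (10.4%). The windows of Ctnnd2 (chr15:30172284-30172533) and Cdkl1 (chr12:69790708-69790957) had no match. They held 62.8% and 64.0% G and C, with 21 and 17 CpG pairs, beside a median of 52.4% and 6 CpG over all windows. Gabrp held 49.2% and 1 CpG. No motif was shared by all 6 genes, and a match is only a run of letters. Other transcript models start inside or before some windows: the Cdkl1 gene model reaches to position 69791196, beyond its window. The Capsl gene model starts inside its window, at position 9436016, and takes in the CCAAT match at 12 bases. The Gabrp gene model also starts inside its window, at position 33578978.

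All levels are on the log2 scale of RMA, which sums up the several probes of each probe set as 1 value. The array medians lay between 5.51 and 5.53. The controls named TrpnX, made for a bacterial transcript, lay between 2.87 and 3.34, and 3.34 serves below as the control level. On its own scale, 1 unit is a doubling. Of all genes, 5.83% were called lower and 5.92% higher with progesterone (limma at a Benjamini-Hochberg adjusted p under 0.05), and 1.15% had a log2 change at or below -1. All 6 genes were among the called ones because the rule took them from there. Standard errors (SE) of probe sets come from limma over all 45037 probe sets that are no controls.

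Gabrp showed the largest fall of all named genes. Its probe set 1451424_at read 8.47, 8.68 and 9.45 on oil replicates 1 to 3 and 5.60, 4.74 and 7.02 on progesterone replicates 1 to 3. The groups did not overlap, but progesterone replicate 3 stood well above the other progesterone arrays and 1.45 below the nearest oil array. The difference was -3.08 ± 0.530 SE, or 8.46-fold, and it was -3.70 without progesterone replicate 3 and -2.56 without progesterone replicate 2. The group means lay 5.53 and 2.45 above the control level. The second probe set, 1424647_at, read 6.95, 7.10 and 7.86 with oil and 5.51, 4.73 and 6.08 with progesterone. It ranked the 6 arrays in the same order and also had no overlap, with a smaller difference of -1.86 ± 0.357 SE (3.64-fold). Both probe sets carry the same accession in the platform annotation. The mean of both gave a difference of -2.47, and 32 added to the unlogged values of the first before the log gave -2.45.

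Ctnnd2 had 2 probe sets that differed in size of fall. With 1422592_at the oil arrays read 6.86, 6.50 and 7.03 and the progesterone arrays 4.14, 3.81 and 4.91. The groups lay 1.59 apart, and progesterone replicate 3 was again the highest of its group and replicate 2 the lowest. The difference was -2.51 ± 0.273 SE, a 5.70-fold lower level, and the progesterone mean lay 0.95 above the control level. The other probe set, 1456116_at, read 4.80, 4.83 and 4.73 with oil and 4.40, 4.08 and 4.57 with progesterone. Its direction was the same and its groups stayed 0.16 apart, but its difference was -0.44 ± 0.136 SE. Its oil mean lay 1.45 above the control level. The mean of both probe sets gave -1.47, or 2.78-fold, and adding 32 to the unlogged values of the first before the log gave -1.46, or 2.75-fold.

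Sv2b showed the same division. Probe set 1434800_at read 7.24, 7.75 and 7.24 with oil and 5.64, 4.82 and 4.84 with progesterone. Here progesterone replicate 1, not replicate 3, was the highest of its group, and the groups lay 1.60 apart. The difference was -2.31 ± 0.245 SE (4.96-fold), and the progesterone mean lay 1.76 above the control level. Probe set 1435687_at read 4.70, 4.61 and 4.81 with oil and 4.25, 3.60 and 4.11 with progesterone. It differed by -0.72 ± 0.171 SE with no overlap, from an oil mean only 1.37 above the control level. The mean of both gave -1.515. With 32 added to the unlogged values before the log, the first probe set differed by -1.60 (3.03-fold).

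Capsl had a single probe set, 1429891_at, so no second measurement on the array bears on it. It read 6.50, 6.36 and 6.20 with oil and 3.81, 4.02 and 4.93 with progesterone. The oil arrays lay close together (SD 0.150, n = 3) and the progesterone arrays further apart (SD 0.595, n = 3), with replicate 3 the highest. The difference was -2.10 ± 0.269 SE (4.29-fold), and the progesterone mean lay 0.91 above the control level. Adding 32 to the unlogged values before the log made it -1.14, or 2.20-fold. A level so near the control makes the size of the fold uncertain.

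Cdkl1 was the gene whose probe sets came closest to each other. Probe set 1429664_at read 6.83, 7.07 and 5.94 with oil and 4.40, 4.76 and 4.50 with progesterone, a difference of -2.06 ± 0.272 SE (4.17-fold). Probe set 1453231_at read 6.39, 6.65 and 5.61 with oil and 3.95, 3.50 and 4.06 with progesterone, a difference of -2.38 ± 0.270 SE (5.21-fold). In both, oil replicate 3 was the lowest oil array and oil replicate 2 the highest, while the order of the progesterone arrays differed. The groups lay 1.18 and 1.55 apart. The progesterone means lay 1.21 and 0.50 above the control level, so the larger of the differences ended nearest to it. With 32 added before the log, the first became -1.24.

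Acpp had the brightest leading probe set of the 6 genes after progesterone, and that probe set stayed far above the control level. This probe set, 1441975_at, read 10.19, 10.31 and 9.74 with oil and 8.53, 7.79 and 8.14 with progesterone. The groups lay 1.21 apart, and their means lay 6.74 and 4.81 above the control level. The difference was -1.93 ± 0.216 SE (3.80-fold), and adding 32 before the log changed it only to -1.81. The other probe sets of Acpp were dim. With 1419832_s_at the oil arrays read 4.57, 4.01 and 4.48 and the progesterone arrays 4.07, 4.01 and 4.27, so the groups overlapped, at a difference of -0.24 ± 0.162 SE. With 1453943_a_at they read 3.80, 4.07 and 3.92 and then 3.19, 3.40 and 3.70, a difference of -0.50 ± 0.148 SE. Its progesterone mean was 0.09 above the control level, and its groups were 0.10 apart. The mean of the 3 probe sets gave -0.89 and their median -0.26. The fold of Acpp thus rests on 1 probe set, and which transcripts each of the 3 detects was not examined here.

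**Figure D1:**
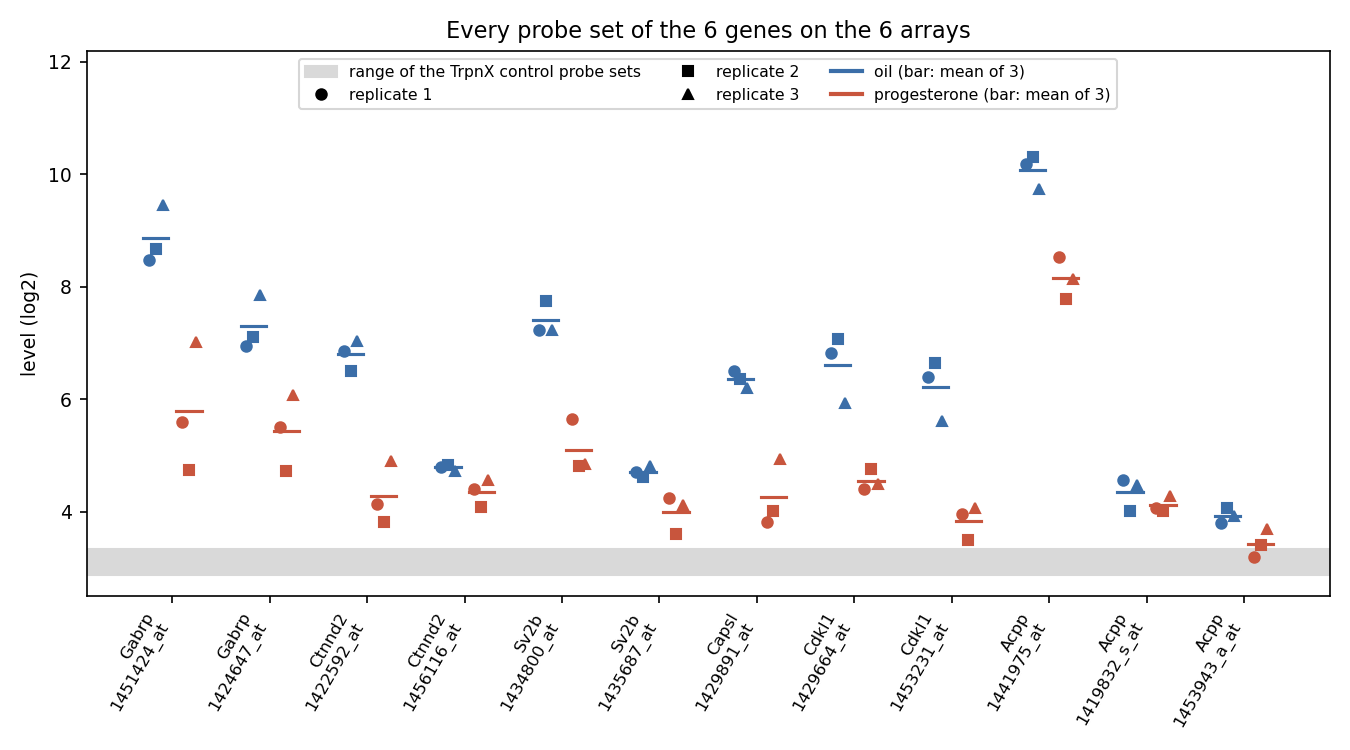
The level (log2) of each of the 12 probe sets on each array, with oil in blue and progesterone in red, symbols for replicates 1 to 3, bars for group means and a grey band for the range of the TrpnX controls (2.87 to 3.34). In 11 of the 12 probe sets every red point lies below every blue one, and 1419832_s_at of Acpp is the exception.

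Across the 12 probe sets, all 12 differences were negative and 11 had every progesterone array below every oil array. The rule used this contrast, and over all features such an arrangement was found in 15.9% of genes and 13.1% of probe sets. Of the 5 genes with several probe sets, all had the same direction in each of them. Gabrp and Cdkl1 had differences beyond -1.8 in both probe sets, while Ctnnd2, Sv2b and Acpp had such a difference in 1 probe set only. The 8 probe sets with differences beyond -1.8 had oil means at least 2.88 above the control level. The other 4 had oil means between 0.59 and 1.45 above it. Set against the distance from the oil mean down to the control level, the difference covered 82.7% for the second Cdkl1 probe set, 72.6% for the leading one of Ctnnd2 and 69.7% for Capsl. It covered 55.7% for the leading probe set of Gabrp and 28.6% for that of Acpp. The dim 1453943_a_at of Acpp covered 84.7%.

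**Figure D2:**
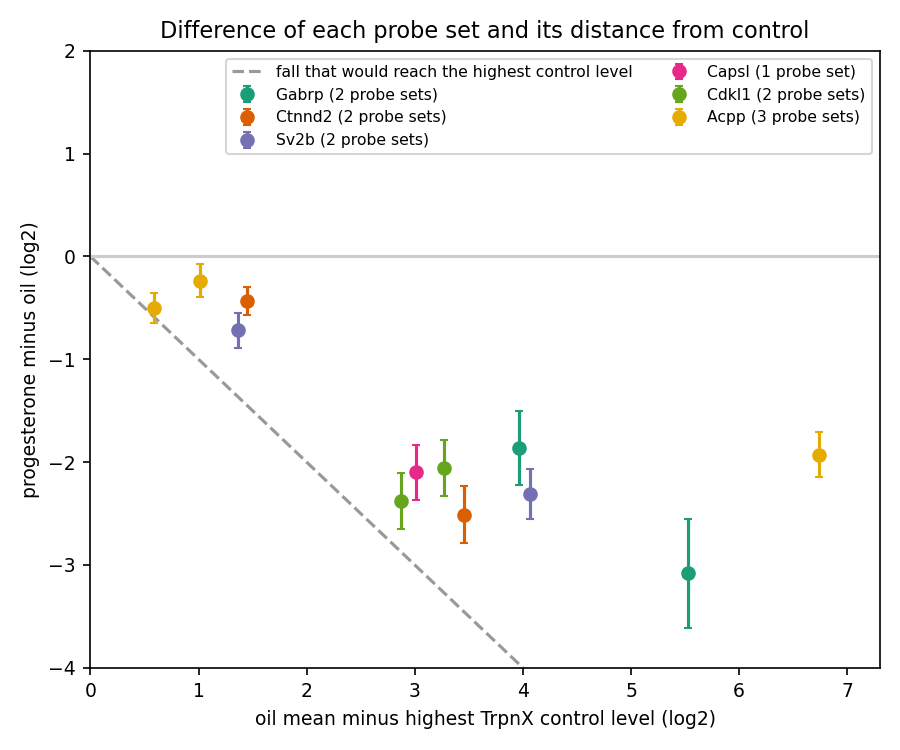
Difference between progesterone and oil (log2, bars are limma SE) of the 12 probe sets against the distance of the oil mean from the highest TrpnX level (log2). On the dashed line the progesterone mean would equal that level; the 4 probe sets at the left, with oil means at most 1.45 above it, have differences between -0.72 and -0.24.

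Within the groups the leading probe sets of the 6 genes did not vary alike. On progesterone replicate 3, Gabrp was 1.23, Capsl 0.68 and Ctnnd2 0.62 above their group means, while Sv2b was 0.26 below its mean and Cdkl1 and Acpp were within 0.06 of theirs. On oil replicate 3, Gabrp was 0.58 and Ctnnd2 0.23 above their means, whereas Cdkl1 was 0.67 and Acpp 0.34 below. The leading probe sets of Sv2b and Acpp were both highest on progesterone replicate 1 and on oil replicate 2. By contrast, 1435687_at of Sv2b (4.61) and 1419832_s_at of Acpp (4.01) were lowest on oil replicate 2, and 1453943_a_at of Acpp was highest there (4.07). By their leading probe sets, Gabrp and Ctnnd2 thus were highest on the arrays numbered 3 in both groups, and no other gene of the 6 was. The other Gabrp probe set was highest there too, but 1456116_at of Ctnnd2 was lowest on oil replicate 3 (4.73).

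Markers of epithelium also varied between arrays. The median of 15 measured epithelial markers was 9.85, 9.82 and 10.58 on oil replicates 1 to 3 and 10.34, 9.87 and 10.43 on progesterone replicates 1 to 3. Epcam, an adhesion molecule of epithelial cells, read 10.95, 10.89 and 11.52 with oil and 10.58, 10.11 and 11.30 with progesterone. Muc1, a mucin of the epithelial surface, read 7.96, 8.02 and 9.80 and then 7.08, 6.56 and 9.39. Epcam and Muc1 were, like Gabrp, highest on replicate 3 and lowest on replicate 2 among the progesterone arrays. Muc1 belongs to the glandular list below and not to the epithelial list, which was divided. Of its 15 markers, 7 were highest on progesterone replicate 3 and 8 on progesterone replicate 1, among them Cldn3 at 12.44, 11.96 and 12.21 on progesterone replicates 1 to 3. Among the oil arrays, 10 of the 15 were highest on replicate 3. The neutrophil transcript S100a8 read 11.82 on oil replicate 3 and 12.02 and 12.48 on progesterone replicates 2 and 3, and at most 5.01 on the other arrays. The share of these transcripts in the levels of the 6 genes was not tested. Without both arrays numbered 3 the differences were -3.405 for Gabrp, -2.705 for Ctnnd2, -2.265 for Sv2b, -2.515 for Capsl, -2.37 for Cdkl1 and -2.09 for Acpp.

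**Figure D3:**
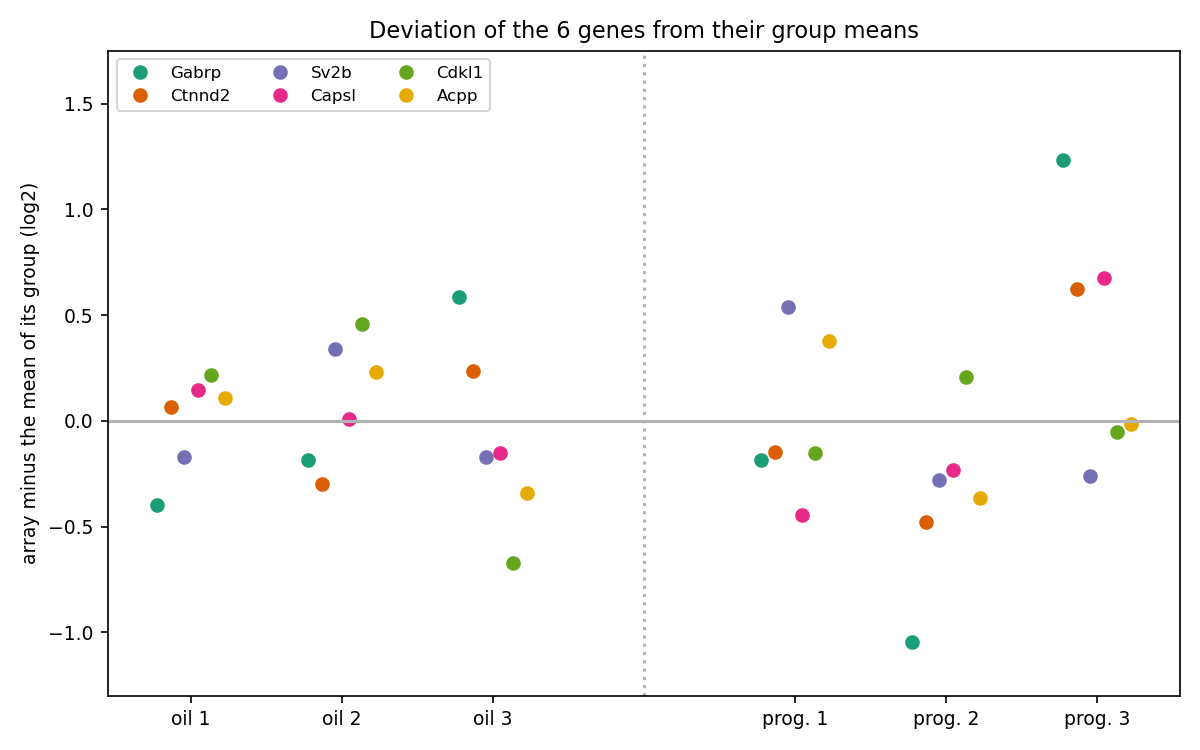
Deviation of the leading probe set of each gene from its group mean (log2) on each array. The spread is widest on progesterone replicate 3, where Gabrp lies 1.23 above and Sv2b 0.26 below the mean, and on oil replicate 3 Gabrp and Cdkl1 lie on opposite sides.

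Likeness of pattern was measured by the root mean square difference of gene-centred log2 values over the 6 arrays, with no test. Clone and model names were left out of the search for the genes with the most similar pattern. For Gabrp these were Ctnnd2 (0.51), Speer4cos (0.58) and Wnt7a, a Wnt ligand of the uterine epithelium (0.75). For Ctnnd2 they were Speer4cos (0.31), Capsl (0.33) and Wnt7a (0.34). Capsl lay closest to Aspa, an enzyme that cleaves N-acetylaspartate (0.25), Vwa2 (0.26) and Ctnnd2 (0.33). Sv2b and Acpp had Cabcoco1 as their nearest gene (0.23 and 0.18). Sv2b was followed by Acpp itself (0.27) and Pik3ip1, an inhibitor of phosphatidylinositol 3-kinase (0.29), and Acpp by Tmprss13, a membrane serine protease (0.19), and Tbx6 (0.20). Cdkl1 had Dclk3, a kinase of the doublecortin family, and Pik3ip1 (both 0.29) and Irs2, an adaptor of the insulin receptor (0.33). Cabcoco1 read 5.90, 6.44 and 6.01 with oil and 4.62, 3.97 and 4.10 with progesterone, and Dclk3 read 5.58, 6.07 and 5.24 and then 3.79, 3.70 and 4.09. Pik3ip1 was thus among the 3 nearest genes of both Sv2b and Cdkl1, and Ctnnd2 among those of both Gabrp and Capsl. The measure includes the difference between the groups by which the 6 genes were chosen, so it also reflects how far each gene fell.

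Of the relatives of the 6 genes, 10 passed the test. Of 176 measured genes of the same families and processes, 4 were higher (2.27%) and 6 lower (3.41%), beside the 5.92% and 5.83% over all genes, and the median log2 change was -0.07, beside -0.02 over all genes. A block for the replicate number raised these counts to 8 and 9, beside 7.6% higher and 8.49% lower over all genes under the same block. An unadjusted p under 0.05, counted for each list below, was found for 33 of the 176 and for 26% of all genes. Leaving out oil replicate 2 gave 1 higher and 3 lower, and leaving out progesterone replicate 3 gave 6 and 3. Without oil replicate 1 or progesterone replicate 2, 2 were higher.

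Among 14 measured GABA-A receptor subunits other than Gabrp, 0 were higher and 1 was lower in limma (3 had an unadjusted p under 0.05), and 4 had both group means at or below the control level. The lower one was Gabrb1, a beta subunit, at 7.45, 7.67 and 7.16 with oil and 6.94, 6.51 and 6.63 with progesterone. Its log2 change was -0.73 ± 0.166 SE (limma adjusted p = 0.0332), none of its 3 other probe sets passed, and its call ended when oil replicate 1 or 2 or progesterone replicate 2 or 3 was left out. Of the 15 genes of GABA synthesis, transport and GABA-B receptors, 0 were higher and 1 was lower in limma (3 with an unadjusted p under 0.05). That was Gabarapl1, an autophagy protein of the Gabarap family, 2.02-fold lower (log2 change -1.02, limma adjusted p = 0.0101), and its other probe set passed as well.

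Among the 12 catenins and plakophilins, 0 were higher and 1 was lower in limma (3 with an unadjusted p under 0.05). Pkp4, a plakophilin close to delta-catenin, was at 9.75, 9.83 and 9.76 with oil and 9.29, 9.14 and 9.14 with progesterone (log2 change -0.59 ± 0.0891 SE, limma adjusted p = 0.00947), and its other probe set did not pass. The call of Pkp4 ended without both arrays numbered 3 (limma adjusted p = 0.0585). Ctnnb1, beta-catenin, read 13.16 and 13.05 as group means (adjusted p = 0.453), and Ctnnd1, p120-catenin itself, differed by -0.19 (adjusted p = 0.236). With the replicate block, Arvcf, another p120 relative, was called higher (adjusted p = 0.0318), where the fit without block gave 0.0591. Of 13 cadherins 1 was higher and 1 lower (2 with an unadjusted p under 0.05 in limma). Cdh16, a cadherin best known from kidney epithelium, was 2.01-fold lower (log2 change -1.01, limma adjusted p = 0.00364), and Cdh11, a cadherin of mesenchymal cells, was 1.61-fold higher (adjusted p = 0.0139), a call that ended without oil replicate 2, without progesterone replicate 2 and without both arrays numbered 3 (adjusted p = 0.0791). Cdh1, the epithelial cadherin, differed by -0.05 (adjusted p = 0.915).

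Of 33 synaptic vesicle genes 1 was higher and 0 were lower in limma (6 with an unadjusted p under 0.05). Syt1, the calcium sensor of vesicle release, read 5.80, 5.66 and 5.41 with oil and 6.75, 6.54 and 6.04 with progesterone (log2 change 0.82 ± 0.196 SE, limma adjusted p = 0.0390), the opposite direction to Sv2b. Of the 6 fits that each left out 1 array, only that without progesterone replicate 3 kept the call, and none of its 3 other probe sets passed. Sv2a and Sv2c, the nearest relatives of Sv2b, differed by -0.26 (adjusted p = 0.168) and 0.04 (adjusted p = 0.899), and Sv2c read between 3.32 and 3.72 on the 6 arrays. Sypl, which had the highest mean in the list, differed by -0.18 (adjusted p = 0.421). Blocking on the replicate number gave 2 higher and 1 lower.

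In the motile cilium list, 0 of 55 measured genes were higher and 1 was lower in limma (7 with an unadjusted p under 0.05), and 11 had both means at or below the control level. Rfx3, a transcription factor of ciliary genes, was 1.40-fold lower (log2 change -0.49, limma adjusted p = 0.0317), its other probe set did not pass, and its call held only without progesterone replicate 2 among the 6 fits without 1 array. Foxj1, the regulator of motile cilia, read between 4.15 and 4.35 on all 6 arrays. Ift57, a transport protein of cilia, and Tppp3 differed by -0.03 and -0.18 (adjusted p = 0.903 and 0.543). Blocking on the replicate number gave 1 higher and 2 lower. Of 12 calcyphosine and other EF-hand genes, Calml3, a calmodulin-like protein, was 1.60-fold higher (adjusted p = 0.00737) and Efcab7, a ciliary EF-hand protein, was 1.47-fold lower (adjusted p = 0.0255), a call that ended when oil replicate 2 or 3 or progesterone replicate 1 or 3 was left out. In the EF-hand list 2 had an unadjusted p under 0.05 in limma. Caps2, the paralogue of calcyphosine, differed by -0.11 (adjusted p = 0.899).

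None of the 7 CDKL and ciliary kinases other than Cdkl1 passed in limma. All 7 changes were negative, between -0.50 (Mok) and -0.06 (Cdkl4). Of the 7, 4 had an unadjusted p under 0.05, beside 26% of all genes. All progesterone arrays of 4 lay below their oil arrays, an arrangement found in 15.9% of all genes. The median change was -0.25. Mok, which had the largest difference, read 5.99, 6.27 and 5.55 with oil and 5.36, 5.21 and 5.73 with progesterone (adjusted p = 0.184). Cdkl2 differed by -0.43 (adjusted p = 0.150, and 0.0403 with the replicate block). Cilk1, a kinase of ciliary transport, differed by -0.38 (adjusted p = 0.113).

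Of 5 acid phosphatases other than Acpp, 0 passed in limma in either direction and 0 had an unadjusted p under 0.05. Acp6, with the largest difference, was at -0.24 (adjusted p = 0.213), and Acp1 at -0.03 (adjusted p = 0.883). Of 10 genes of extracellular nucleotides and adenosine, 1 was higher and 0 were lower (3 with an unadjusted p under 0.05). Alpl, alkaline phosphatase, read 4.25, 4.18 and 4.78 with oil and 5.67, 7.13 and 5.92 with progesterone, 3.57-fold higher (limma adjusted p = 0.0236), and its call ended without oil replicate 1 or 2, with an offset of 32 (log2 change 1.04, adjusted p = 0.0697) and without both arrays numbered 3 (adjusted p = 0.0550). Nt5e, the main enzyme that forms adenosine outside cells, differed by -0.06 (adjusted p = 0.893). With the replicate block 2 of this list were higher.

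**Figure D4:**
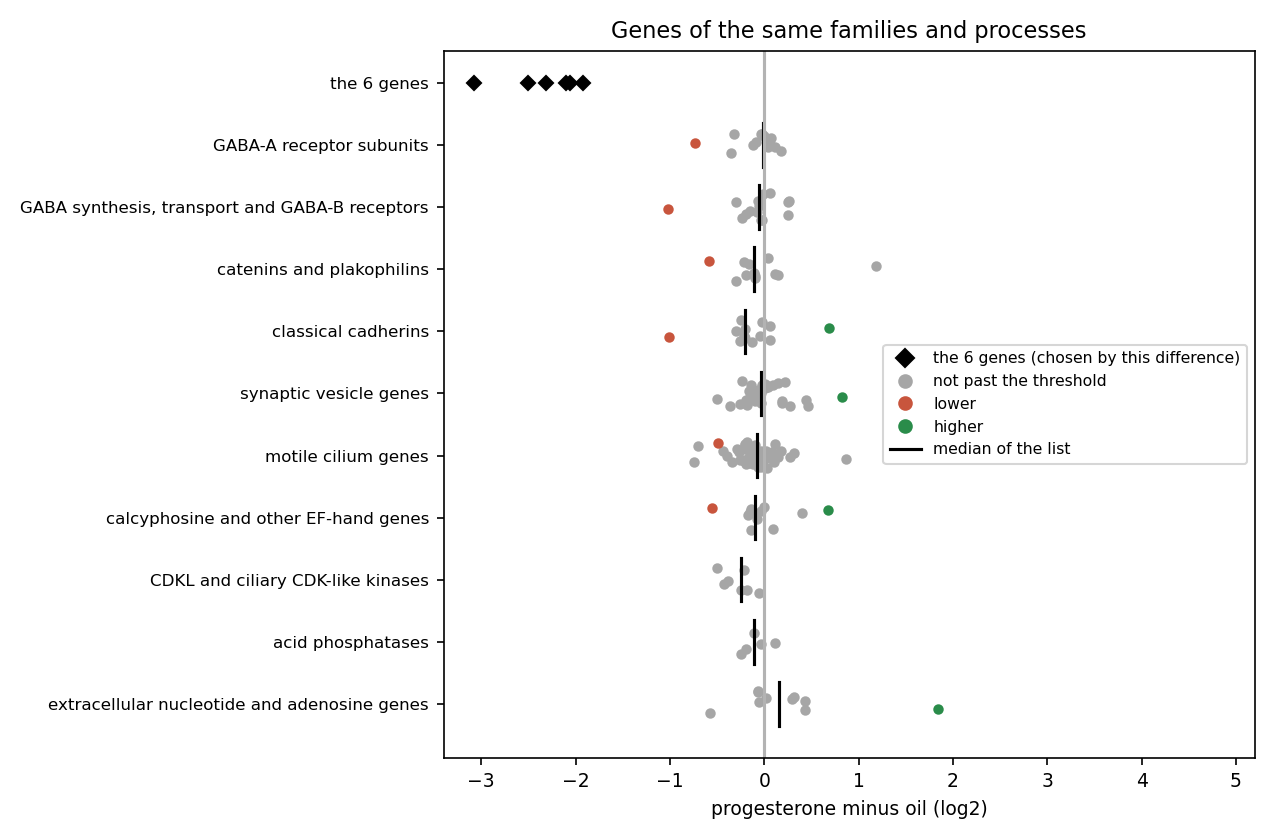
Log2 change after progesterone of the 6 genes (diamonds, at -3.08 to -1.93) and of the 176 measured relatives by list, with called genes coloured and the median of each list as a bar. The called relatives lie between -1.02 (Gabarapl1) and 1.84 (Alpl), and no relative reaches the range of the 6 genes.

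Of the markers of the cell types to which the 6 genes are usually ascribed, 2 luminal ones were called lower in limma. Among 15 general epithelial markers 1 was higher, 0 were lower and 14 did not pass in limma (5 with an unadjusted p under 0.05), with a median change of 0.06. Cldn3, a tight junction protein, was 2.22-fold higher (adjusted p = 0.00624) in all 4 of its probe sets, while Krt8 and Krt18, keratins of simple epithelia, differed by -0.36 and -0.76 (adjusted p = 0.427 and 0.0589). Of 8 luminal markers 0 were higher and 2 were lower (25%, beside 5.83% of all genes), with a median change of 0.08. In this list 2 had an unadjusted p under 0.05 in limma. Wnt7a read 8.25, 8.21 and 8.05 with oil and 6.29, 5.49 and 6.44 with progesterone (4.28-fold lower, adjusted p = 0.00407), and Met, the receptor of hepatocyte growth factor, was 2.42-fold lower (adjusted p = 0.00909), neither in its other probe sets. Of 12 glandular markers 1 was higher, Wfdc3 (2.73-fold, adjusted p = 0.00200, not in its other probe set), and 0 were lower (3 with an unadjusted p under 0.05). The glandular factor Foxa2 differed by 0.16 (adjusted p = 0.685). Over the 3 epithelial lists 2 genes were higher and 2 lower, and with the replicate block 5 and 4.

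The neuron list held no gene that was called lower. Of 20 measured markers 1, again Syt1, was higher and 0 were lower (1 with an unadjusted p under 0.05 in limma), and 7 had both means at or below the control level. Snap25, a protein of the vesicle fusion machinery, read between 2.77 and 3.03 on the 6 arrays, and Tubb3, a neuronal tubulin, between 3.09 and 3.39. Rbfox3, a nuclear protein of neurons, read between 5.65 and 6.19. Nos1 and Dbh, with the highest mean levels of the list, read between 6.29 and 6.43 and between 5.98 and 6.25. They differed by 0.05 and 0.15 (limma adjusted p = 0.774 and 0.388). The list median lay between 4.26 and 4.35 on oil arrays and between 4.21 and 4.40 on progesterone arrays. Of 9 Schwann cell and glial markers, 1 was higher, the neurotrophin receptor Ngfr (2.34-fold, adjusted p = 0.0151, a call that ended without oil replicate 2 or progesterone replicate 2), and 0 were lower (3 with an unadjusted p under 0.05 in limma). With the replicate block 2 were lower, Erbb3 and Mbp. The name neural-type for some of the 6 genes therefore describes where they are known from and not a measured cell type in these samples.

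Markers of other tissues were counted in the same way. Of 10 stromal markers 3 were higher (30%, beside 5.92% of all genes), led by Hoxa11 (2.18-fold) and Hoxa10 (1.84-fold, not in its other probe set). The remaining one was Hand2 (1.55-fold). None of its other probe sets passed, and its call ended without oil replicate 1 or 2. The 1 lower marker was Lum (2.01-fold), whose call ended without oil replicate 1, 2 or 3 or progesterone replicate 3. In the stromal list 6 had an unadjusted p under 0.05 in limma, beside 26% of all genes. None of 10 smooth muscle markers passed in limma (1 with an unadjusted p under 0.05). Of 10 endothelial markers 0 were higher and 1 was lower, Cldn5 (1.88-fold), and 4 had an unadjusted p under 0.05. The call of Cldn5 ended without progesterone replicate 1, 2 or 3, and with the replicate block 3 endothelial markers were lower. The median of 6 adipocyte markers, whose groups overlapped on progesterone replicate 2, was 7.60, 7.66 and 6.87 with oil and 6.10, 7.0 and 5.19 with progesterone, and Adipoq, a fat cell hormone, read 8.02, 8.11 and 7.08 and then 5.80, 7.21 and 4.39. None of the 6 passed in limma (4 with an unadjusted p under 0.05), and 4 were lower with the replicate block. The adipocyte median ranked the oil arrays as each Cdkl1 probe set and the leading Acpp probe set did, with replicate 2 highest and replicate 3 lowest. Among the progesterone arrays the adipocyte median was highest on replicate 2. The leading Cdkl1 probe set was highest there too (4.76). The other Cdkl1 probe set, 1453231_at, was lowest there (3.50), and so was the leading probe set of Acpp (7.79). Gabrp ranked the progesterone arrays in the reverse order of the adipocyte median. The part of fat tissue in the levels of the 6 genes was not tested. The liver transcript Alb read 8.71 on oil replicate 3 and at most 4.29 on the other arrays, and of 6 liver markers 1, Ttr, was higher (6.09-fold), a call that of the 6 fits with 1 array left out held only without oil replicate 3 and that ended with trended and robust eBayes (adjusted p = 0.0960). No macrophage, neutrophil, lymphocyte, mesothelial or oviduct and ovary marker passed in limma (2 oviduct and ovary markers and 0 of the others had an unadjusted p under 0.05), and 1 macrophage and 1 neutrophil marker were higher with the replicate block.

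**Figure D5:**
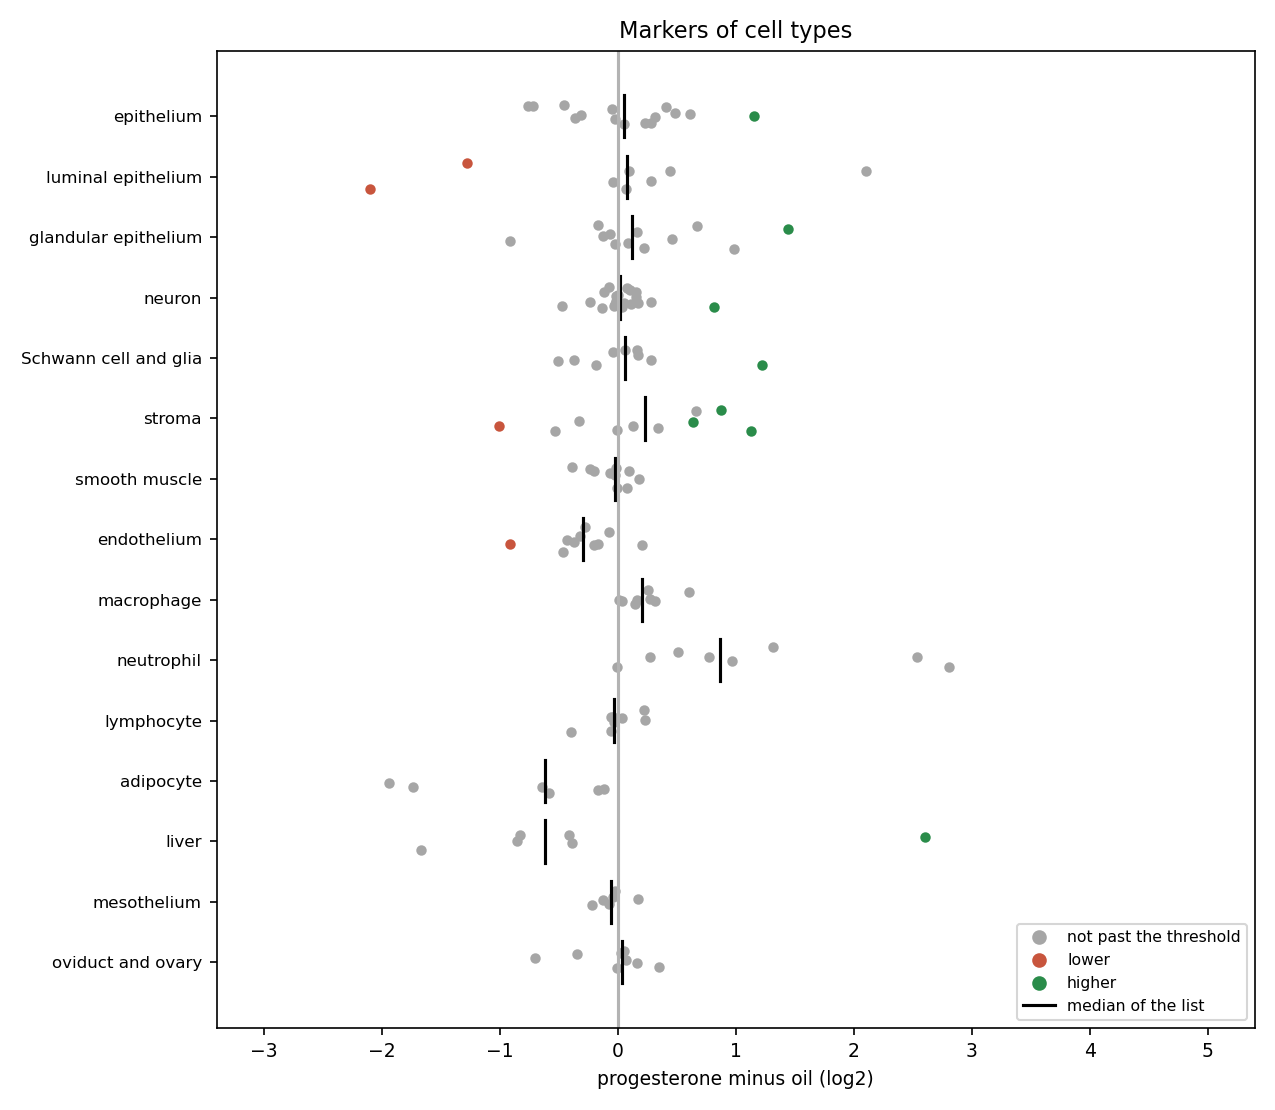
Log2 change after progesterone of the measured markers of 15 cell types or tissues, with called genes coloured and list medians as bars. The medians of the epithelial (0.06) and neuron (0.02) lists lie near 0, the adipocyte (-0.61) and liver (-0.62) lists lie left of it, with 0 and 1 called genes, and the neutrophil list (0.87) lies furthest right, with 0.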

How the data were processed

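Biotinylated cRNA from uterine RNA was hybridised to 6 one-colour arrays, per the labels' protocols. The authors deposited 45101 probe sets as log2 values, and the submitters' processing notes name Partek 6.6 and RMA. Further settings are not given in the sources used here. RMA compresses differences near background. Detection calls were not used. There were 64 controls among the probe sets; by the platform annotation 34945 had 1 gene symbol, 932 had several and 9160 none here. Each of the 18193 genes was represented by its brightest probe set on average over all arrays. These values entered limma 3.58.1 under R 4.3.3 (lmFit, eBayes, no filter, no block), p-values were two-sided, and Benjamini-Hochberg adjustment ran over every gene. Groups came from the sample titles. The number of arrays limits the precision.

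The 6 genes and all lists were chosen with earlier results of these data known. In each list the text names genes past the threshold by size of change, or the largest change, and a gene of high mean level, with nearest patterns by a fixed measure; Epcam, Muc1, Adipoq, Alb, S100a8, Arvcf, Erbb3, Mbp and close paralogues were named after their values were seen. Some other genes, Snap25 and Tubb3 among them, were also named outside this rule. Of 195 listed relatives, 176 were measured. Deviations from the group means correlated across genes between arrays with the same number, at 0.523, 0.141 and 0.636 for replicates 1 to 3. Arrays with unlike numbers were not compared with these, and the labels do not say what a number shares. This is at most a hint of pairing, weak for replicate 2. The main fit and the SE given above ignored the replicate number, and the replicate block is given as an alternative. With the block the SE of the leading probe sets was lower for all 6 genes. It went from 0.530 to 0.261 for Gabrp and from 0.245 to 0.230 for Sv2b. The procedure was tested on simulated data. Alternatives were quantile renormalization, median centring, an offset of 32, the mean or median of probe sets, a filter on the lowest 25%, trended and robust eBayes, the replicate block, stricter thresholds and each array left out. Leaving out both arrays numbered 3 was added after seeing the data.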

Additional observations from a re-analysis of the deposited data

How the results depend on the processing

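The differences of the 6 genes were negative under every alternative run. The genes were chosen by this contrast and the groups of their leading probe sets did not overlap. Leaving out arrays could therefore not turn the sign, and the kept sign is no support. Leaving out 1 array gave -3.70 to -2.56 for Gabrp, -2.82 to -2.27 for Ctnnd2, -2.58 to -2.14 for Sv2b, -2.44 to -1.88 for Capsl, -2.40 to -1.83 for Cdkl1 and -2.12 to -1.745 for Acpp. An offset of 32 gave -1.46 for Ctnnd2, -1.60 for Sv2b, -1.14 for Capsl and -1.24 for Cdkl1, since it shrinks low levels. Averaging the probe sets of each gene gave -1.47 for Ctnnd2, -1.515 for Sv2b and -0.89 for Acpp, and the median gave -1.47, -1.515 and -0.26. Counts of higher and lower genes were 328 and 243 at an adjusted p under 0.01, 674 and 642 with at least 1.5-fold, 586 and 441 without the arrays numbered 3, and 379 to 848 and 278 to 907 without 1 array, where fewer arrays are fitted. Over all probe sets, 1808 were higher and 1692 lower. These were 473 and 340 at 0.01, 953 and 659 without the arrays numbered 3, and 586 to 1301 and 470 to 1257 without 1 array, and 2639 were lower with the replicate block. Among relatives, the replicate block gave 8 higher and 9 lower, a threshold of 0.01 gave 1 higher and 2 lower, and fits without 1 array gave 1 to 6 higher and 3 to 5 lower. With the replicate block, 5 epithelial markers were called higher and 4 lower, and 4 were higher without the arrays numbered 3. Of the 21 list genes called, 9 lost the call without the arrays numbered 3, where fewer arrays are fitted: Alpl, Cdh11, Cldn5, Efcab7, Gabrb1, Hand2, Lum, Pkp4 and Rfx3. Averaging probe sets ended the calls of Gabrb1, Rfx3 and Syt1, and the offset those of Alpl and Syt1. The cause of these shifts was not tested. Levels near the TrpnX controls limit the size of fold that can be read for Ctnnd2, Capsl and Cdkl1 after progesterone.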
